A study of Mus musculus with 136 samples.

Results

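The kidney cortex of saline-injected mice was compared between 15:00 and 9:00. The comparison held 7 of the 136 samples of the series, 4 at 9:00 and 3 at 15:00, chosen by the tissue, injection and time of day that the labels give, and no measured value entered this choice. The titles of the 15:00 samples read 0 kBq 131I and those of the 9:00 samples physiological saline. Both are called saline here, since the paper gave saline to every control group. The series asked how 131I, a radioactive iodine isotope, changes transcription in normal mouse tissues at different times of day, and the saline mice were its controls. All mice were females of 9 months of the BALB/c nude strain CAnN.Cg-Foxn1nu/Crl, which lack a functional Foxn1 gene and therefore have no thymus. Saline was injected i.v. at the named time and the organs were excised 24 h later, so that the time of injection is also the time of day of the tissue. Each experimental group was kept in a cage of its own, so that cage and time of day cannot be told apart. RNA was hybridised to Illumina MouseRef-8 arrays, on which 12776 of 25697 probes, for 8952 named genes, lay above background on at least 3 of the 22 cortex arrays and were tested.

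The mammalian clock is a feedback loop of transcription. ARNTL (BMAL1) and CLOCK bind E-boxes and activate the genes of the PER and CRY proteins, which accumulate and inhibit them, while the nuclear receptors NR1D1 and NR1D2 repress and the ROR receptors activate the gene of ARNTL itself. PAR bZIP factors such as DBP carry the rhythm to output genes, and in the kidney these include genes of tubular transport and of metabolism. Mice are active at night, and both times of day compared here lay in their light phase.

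The 7 samples were kidney cortex by their markers, but 2 samples of 15:00 and 1 of 9:00 also carried markers of other tissues. Of 16 proximal tubule markers, 15 or 16 were above background in each sample, with a summed intensity of 119402 to 141735 at 9:00 and of 105261 to 122818 at 15:00. Adrenal cortex markers summed to 173 to 186 at 9:00 and to 180 and 181 in 15:00 replicates 1 and 2, where none of 8 was above background, but to 5610 in 15:00 replicate 3, where 7 of 8 were. In that sample the steroid 11-beta-hydroxylase gene Cyp11b1 was at 11.92 on the log2 scale, against 4.26 to 4.61 in the other 6 samples. Fat markers summed to 8034 to 13668 at 9:00 and to 12825, 4958 and 30622 at 15:00, with 9, 2 and 10 of 12 above background there against 2, 3, 4 and 6 at 9:00. These sums do not measure fat alone. At 9:00 the markers Lpl and Scd1 were at 12.62 to 12.67 and at 10.35 to 12.72, while Adig, Cidea, Fabp4 and Ucp1 were not above background. At 15:00 Scd1 was at 12.5, 7.01 and 13.97. Ucp1, the uncoupling protein of brown fat, was at 8.33 and 10.08 in 15:00 replicates 1 and 3 and at 4.42 in replicate 2, against 4.36 to 4.82 at 9:00. Markers of the thick ascending limb and distal tubule summed to 62490 to 75842 at 9:00 and to 57187 to 61069 at 15:00, without overlap. Of these, Slc12a1, the sodium, potassium and chloride cotransporter of the thick limb, differed by -0.75, Umod, the gene of uromodulin, by -0.46 and Slc12a3, the cotransporter of the distal convoluted tubule, by 0.45, and 0 of 11 measured passed. Papilla and urothelium markers summed to 1327, 1894, 1084 and 2566 at 9:00, with 12 of 17 above background in replicate 4, and to 1255 to 1349 at 15:00. Psca, a urothelial surface protein, was at 9.08 in 9:00 replicate 4 and at 4.71 to 5.45 in the other 6 samples. Of the muscle, liver and lymphocyte markers, at most 8 in a sample were above background (8 of 13 liver markers in 9:00 replicate 4). In bulk tissue a lower share of a cell type and less RNA per cell cannot be told apart. Results are therefore also given without 15:00 replicate 3, and without both 15:00 replicates 1 and 3.

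**Figure D1:**
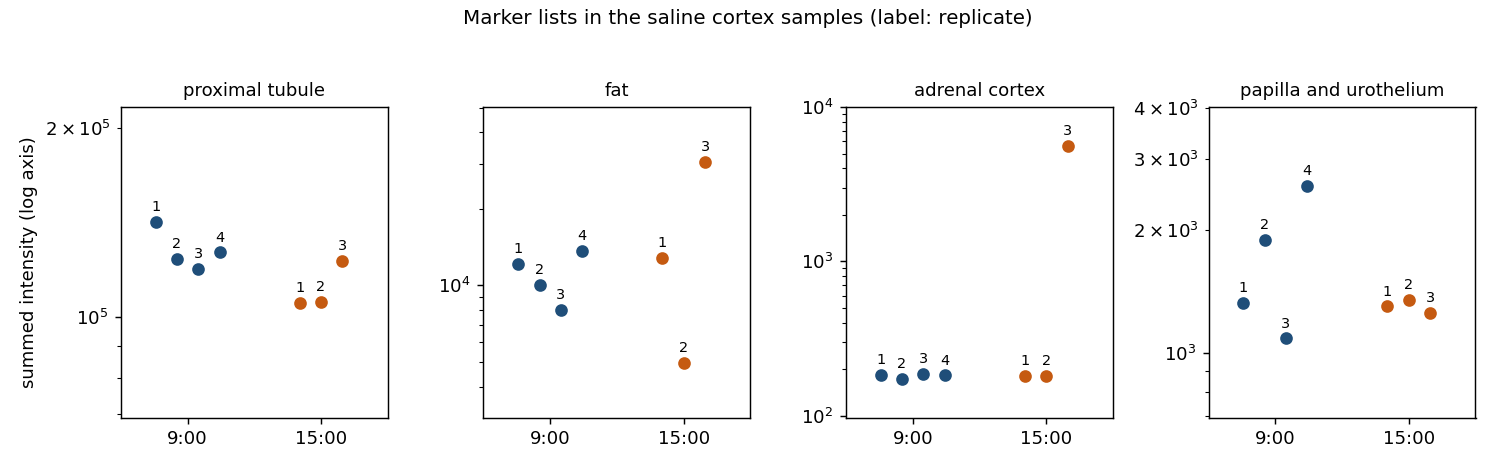
Summed normalized intensity (log axis) of 4 marker lists in each saline cortex sample, with 9:00 in blue, 15:00 in orange and the replicate number above each point. Adrenal cortex markers reached 5610 in 15:00 replicate 3 and lay at 173 to 186 in the other 6 samples, and fat markers reached 30622 in the same sample.

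The 15:00 arrays were dimmer than the 9:00 arrays before normalization. Between 43.5% and 47% of the probes were above background at 9:00 and between 42.7% and 44% at 15:00, with a median raw signal of 108.5 to 129.5 and of 95.98 to 108.4, without overlap. The part of this in the results was not tested, and median scaling is given below as an alternative. Samples of the same group correlated at 0.9676 to 0.9889 over the tested probes. The labels give no slide or scan batch. They do not tie a sample to an animal either, so that the p-values measure only the spread between these samples.

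Few probes passed the test between 9:00 and 15:00, and the clock gene Arntl had the smallest p. The stricter rule, an adjusted p under 0.01 together with a change of 1.5-fold or more, called 6 probes (0.047% of the tested probes), 1 higher (0.00783%) and 5 lower (0.0391%) at 15:00. With these thresholds but other software, the paper reported far more differing transcripts between the control times of the cortex. The reason for this gap was not tested. At an adjusted p under 0.05, 39 probes passed (0.305%), 22 higher (0.172%) and 17 lower (0.133%), for 29 named genes and 2 unnamed probes. These values came from a limma fit in which all 6 groups of cortex samples shared one estimate of the spread. In a fit of the 7 compared samples alone 0 probes passed either rule (limma, smallest adjusted p 0.0543), while 1270 lay at an unadjusted p under 0.05, against 1268 (9.92%) in the fit of all groups. The counts also rested on single samples. The 39 probes became 9 without 9:00 replicate 1 or without 9:00 replicate 2, 14 without 15:00 replicate 1, 11 without 15:00 replicate 2 and 27 without 15:00 replicate 3. The 6 called probes became 1, 2, 2 and 15 without 9:00 replicates 1 to 4 in turn, and 3, 2 and 6 without 15:00 replicates 1 to 3. Without both 15:00 replicates 1 and 3, where the lone remaining sample was taken to vary like the other groups, 35 probes passed the looser rule, of which 9 were among the 39. Scaling each array to its median in place of quantile normalization moved the median difference of all tested probes from 0 to -0.20 on the log2 scale, and then 103 probes passed the looser rule, 7 higher and 96 lower.

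Of the 3 measured transcriptional activators of the clock, Arntl and Clock fell and Rora did not pass. Arntl (probe ILMN_2707510) was at 7.999, 7.83, 6.94 and 6.49 on the log2 scale in the 4 samples of 9:00 and at 4.66, 4.57 and 4.82 in the 3 samples of 15:00. All 15:00 samples lay below every 9:00 sample, and in none of them was the probe above background. The transcript was at least 3.93-fold lower at 15:00 (limma, adjusted p = 0.000116), a bound taken against the lowest signal above background on each 15:00 array, or the sample's own signal where that was higher. Over the 17 alternatives the adjusted p ranged from 7.77e-06 to 0.0543, the highest in the fit of the 7 samples alone. Without 15:00 replicate 3 the fitted log2 difference was -2.71, and without both replicates 1 and 3 it was -2.77. Clock, the partner of ARNTL, was at 9.20 to 9.30 in the 9:00 samples and at 8.76 to 8.82 in the 15:00 samples, so that the groups lay apart with little spread. It fell by 0.46 on the log2 scale (SE 0.10, limma, adjusted p = 0.0447), but passed in only 5 of the 17 alternatives. Rora, a nuclear receptor of the ROR family, was at 8.71 to 9.08 at 9:00 and at 9.31 to 9.56 at 15:00, without overlap, and did not pass (0.58, SE 0.15, limma, adjusted p = 0.11). These were the 3 measured genes of 6 listed clock activators on the array. Of all tested probes 0.133% fell by the looser rule.

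The start of Arntl is shown because this gene changed with the smallest p. The window is the RefSeq sequence of build GRCm38.p6 at chr7:113207261-113207560, plus strand, from 250 bases before to 50 bases after 1 of 2 annotated starts of the gene. Capitals mark TAGGTCA, a motif that ROR and NR1D receptors bind, which begins 30 bases after this start. The window of the other start, chr7:113207215-113207514, held none, but it ends before the place of this motif.
Arntl: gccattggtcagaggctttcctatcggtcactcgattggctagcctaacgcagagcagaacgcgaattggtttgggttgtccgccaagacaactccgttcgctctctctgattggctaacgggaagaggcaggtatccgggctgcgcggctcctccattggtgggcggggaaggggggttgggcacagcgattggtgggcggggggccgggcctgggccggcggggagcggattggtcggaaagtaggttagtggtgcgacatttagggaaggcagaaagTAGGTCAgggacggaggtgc
On either strand TAGGTCA was present in the windows of 2.97% of all 27025 genes with a promoter window. Of the genes that passed the looser rule, 14 of 17 higher genes and 11 of 12 lower genes had a window, and Arntl was the only one with this motif. A match of letters is a description and shows no binding.

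Of the 8 measured repressors of the clock, Per1 and Per2 rose, 0 fell and 6 did not pass (adjusted p under 0.05), while 0.172% of all tested probes rose. The median log2 difference was 0.79, against 0 over all tested probes, and 4 of the 8 genes were higher without overlap, against 4.67% of all tested probes. Per2 (ILMN_2987862) was at 7.46, 7.75, 8.62 and 9.63 at 9:00 and at 10.03, 10.52 and 10.30 at 15:00, and its second probe (ILMN_2987863) at 7.12, 7.42, 8.32 and 9.06 against 9.91, 10.31 and 9.93. All 15:00 samples lay above all 9:00 samples for both probes. Per2 rose by 1.92 (SE 0.36, adjusted p = 0.0188) by the first and by 2.07 (SE 0.33, adjusted p = 0.00617, limma) by the second probe, the only higher probe called at the stricter rule. Per1, like PER2 a partner of the CRY proteins, was at 6.33, 6.40, 6.95 and 7.91 at 9:00 and at 9.21, 9.35 and 8.39 at 15:00. It rose by 2.09 (SE 0.36, adjusted p = 0.0118, limma) and its second probe by 1.61 (SE 0.30, adjusted p = 0.0183, limma), with the groups apart for both probes. Without 15:00 replicate 3 the Per1 differences were 2.39 and 1.95 and both probes passed, while of the Per2 probes only ILMN_2987863 did (adjusted p = 0.017 against 0.057, range over the alternatives 0.000191 to 0.119 and 0.000329 to 0.164, limma). Without both 15:00 replicates 1 and 3, ILMN_2813487 of Per1 passed (adjusted p = 0.032, range 0.00194 to 0.151, limma) and the Per2 probes did not.

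The 6 other repressors did not pass. Ciart, which encodes a repressor of the ARNTL-CLOCK dimer, was at 4.33, 4.47, 6.04 and 6.44 at 9:00, above background in 2 of the 4 samples, and at 7.20, 7.28 and 6.80 at 15:00. The groups did not overlap, but the 9:00 samples covered a range of more than 2 on the log2 scale, and the difference of 1.77 (SE 0.44) had an adjusted p of 0.0916 (limma). Cry2 was at 5.28 to 6.25 at 9:00 and at 6.37 to 7.39 at 15:00, also without overlap (0.96, SE 0.24, limma, adjusted p = 0.101). Bhlhe40, Nr1d2 and Per3 differed by 0.33, 0.61 and 0.60 with overlapping groups, and Per3 was not above background in any 9:00 sample and in 1 of 15:00. Nr1d1 was at 7.39 to 8.18 at 9:00 and at 7.23 to 7.46 at 15:00, the only repressor with a lower mean at 15:00 (-0.39, SE 0.24, limma, adjusted p = 0.636).

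Among the measured repressors with a promoter window, 6 of 8, the E-box CACGTG lay in 1 of 2 windows of Per1 and in that of Ciart, and the D-box TTANGTAA in that of Per3, against 8.09% and 2.72% of all genes (both strands). They are shown because ARNTL and CLOCK bind E-boxes and PAR bZIP factors bind D-boxes. Capitals mark CACGTG in Per1 (chr11:69098699-69098998, plus strand, 166 bases before this start, with none in the window at chr11:69099902-69100201) and in Ciart (chr3:95882179-95882478, minus strand, 116, 58 and 44 bases before it), and TTATGTAA in Per3 (chr4:151044616-151044915, minus strand, 205 and 158 bases before it), all from RefSeq, GRCm38.p6.
Per1: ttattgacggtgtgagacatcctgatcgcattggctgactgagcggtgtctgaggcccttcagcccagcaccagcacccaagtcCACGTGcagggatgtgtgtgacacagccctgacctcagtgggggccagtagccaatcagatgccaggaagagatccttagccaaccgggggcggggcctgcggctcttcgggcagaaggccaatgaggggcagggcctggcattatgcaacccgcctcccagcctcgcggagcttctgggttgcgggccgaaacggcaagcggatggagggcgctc
Ciart: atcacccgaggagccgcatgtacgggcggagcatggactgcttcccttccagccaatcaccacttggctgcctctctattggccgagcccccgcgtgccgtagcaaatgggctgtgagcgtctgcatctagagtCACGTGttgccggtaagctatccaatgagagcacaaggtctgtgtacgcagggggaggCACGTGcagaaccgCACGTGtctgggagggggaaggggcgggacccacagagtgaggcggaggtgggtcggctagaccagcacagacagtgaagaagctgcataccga
Per3: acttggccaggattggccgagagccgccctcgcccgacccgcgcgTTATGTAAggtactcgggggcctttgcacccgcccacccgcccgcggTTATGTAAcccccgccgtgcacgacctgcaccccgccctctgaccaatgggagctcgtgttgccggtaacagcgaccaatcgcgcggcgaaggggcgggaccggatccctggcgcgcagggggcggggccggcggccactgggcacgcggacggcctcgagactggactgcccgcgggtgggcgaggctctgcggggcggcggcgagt

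Of the 12 measured PAR bZIP factors and clock outputs, 1 rose, 0 fell and 11 did not pass, while 0.172% of all tested probes rose and 0.133% fell. The list's median difference was 0.56, against 0 over all tested probes. Usp2, a ubiquitin-specific protease, was at 9.51, 9.57, 9.97 and 10.14 at 9:00 and at 10.80, 10.87 and 10.87 at 15:00. The 15:00 samples were nearly identical and lay above all 9:00 samples, and the transcript rose by 1.05 (SE 0.20, limma, adjusted p = 0.0234). It did not pass without 15:00 replicate 3 (adjusted p = 0.061, range over the alternatives 0.0131 to 0.256). Dbp was at 9.54, 10.21, 11.62 and 11.81 at 9:00 and at 12.35 to 12.43 at 15:00. The difference of 1.60 (SE 0.36) missed the threshold (limma, adjusted p = 0.0598), with the spread lying within the 9:00 group. Tsc22d3, a leucine zipper gene that glucocorticoids induce, was at 8.95 to 10.06 at 9:00 and at 10.18 to 10.97 at 15:00 (1.17, SE 0.26, limma, adjusted p = 0.0529). Tspan4 was also higher without overlap (0.70, adjusted p = 0.362, limma). Tef, Wee1, Nampt, Klf9 and Ppp1r3c had higher means and Nfil3, Id2 and Cdkn1a lower means at 15:00, with overlapping groups and adjusted p values of 0.368 to 0.996 (limma). With median scaling the differences of Nampt and Klf9 were -0.06 and -0.17, against a median of -0.20 over all tested probes. Of the 9 measured kinases, ubiquitin ligases and other modifiers of clock proteins, a list that also holds Ciart, 0 passed, with a median difference of 0.33. Of these, Csnk1e, a casein kinase that phosphorylates PER proteins, was at 7.55 to 7.69 at 9:00 and at 7.85 to 8.38 at 15:00 (0.43, limma, adjusted p = 0.343).

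**Figure D2:**
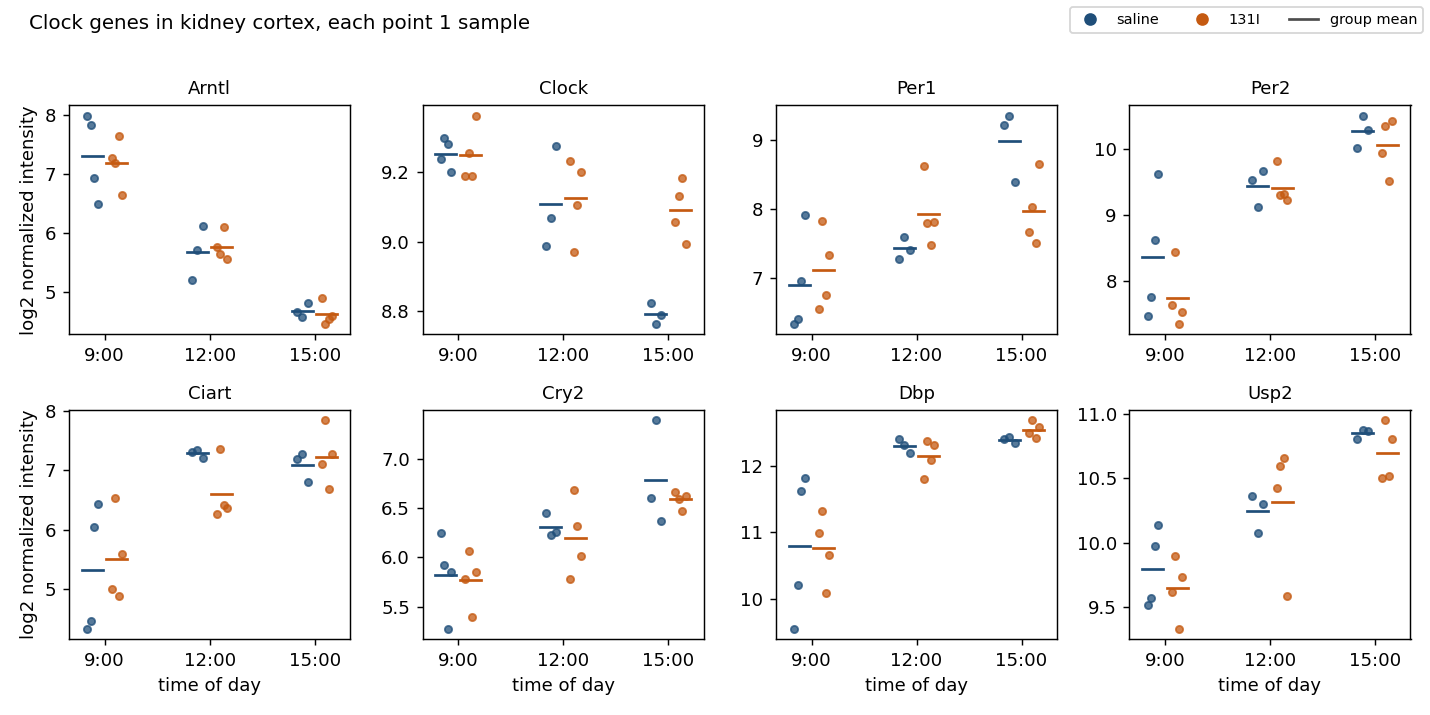
Log2 normalized intensity of 8 clock genes against the time of day in saline (blue) and 131I (orange) cortex samples, each point 1 sample and each bar the group mean. Arntl lay at 6.49 to 7.999 at 9:00 and at 4.57 to 4.82 at 15:00 in saline, and Dbp spread from 9.54 to 11.81 at 9:00 but only from 12.35 to 12.43 at 15:00.

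The 4 samples of 9:00 differed in these genes among themselves. Replicates 1 and 2 had the higher Arntl and the lower Per1, Per2, Ciart and Dbp values, and replicates 3 and 4 lay nearer to the 15:00 group for each of these genes. Over the 39 probes the median distance of a 9:00 sample from the 15:00 mean, counted in the direction of the change, was 1.208 and 1.21 for replicates 1 and 2 and 0.9615 and 0.8977 for replicates 3 and 4. The probes were chosen on these samples, so that the distances are a description. Without 9:00 replicate 4 the differences of Arntl, Per2 (ILMN_2987862) and Dbp were -2.90, 2.34 and 1.94, and Dbp passed (adjusted p = 0.00750, range over the alternatives 0.00750 to 0.392, limma).

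The other genes with probes that fell by the stricter rule were Itgb6 (2 of 3 probes), Ddc and Tnfaip2. Itgb6 encodes the beta-6 chain of an epithelial integrin that activates latent TGF-beta. Its brightest probe (ILMN_2805372) was at 12.05, 11.94, 11.57 and 11.34 at 9:00 and at 10.69, 9.80 and 10.42 at 15:00. All 3 probes on the array fell without overlap, by 1.42, 1.48 and 1.49, with adjusted p values of 0.00617, 0.00156 and 0.0135 (limma). Ddc, the decarboxylase that makes dopamine from L-DOPA in the proximal tubule, was at 10.74, 10.72, 10.34 and 9.70 at 9:00 and at 8.29, 8.56 and 8.94 at 15:00. It fell by 1.78 (SE 0.27, adjusted p = 0.00578, limma), with all 15:00 samples below all 9:00 samples. Tnfaip2 (ILMN_2474858), a gene induced by tumour necrosis factor, was at 6.99 to 7.56 at 9:00 and at 5.55 to 6.11 at 15:00 and fell by 1.35 (SE 0.21, adjusted p = 0.00578, limma). Its second probe, ILMN_2841289, fell by 0.89 (adjusted p = 0.0234, limma), and ILMN_2841290, another probe, did not pass (-0.39, adjusted p = 0.553, limma). Without 15:00 replicate 3, where Arntl, Ddc, the 3 Itgb6 probes and both Tnfaip2 probes had differences of -2.71, -1.95, -1.48, -1.54, -1.62, -1.48 and -0.99, all of them passed the looser rule. Without both 15:00 replicates 1 and 3, Ddc (adjusted p = 0.064, range over the alternatives 0.000238 to 0.064, limma) and ILMN_2841289 of Tnfaip2 (adjusted p = 0.107, range 0.00316 to 0.149, limma) did not.

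Further transcripts fell by the looser rule only. Cdkl1, a cyclin-dependent kinase-like gene, was at 7.21 to 7.71 at 9:00 and at 5.70 to 6.58 at 15:00 (fell by 1.29, adjusted p = 0.0118, limma). Ggct, which splits gamma-glutamyl amino acids in the breakdown of glutathione, fell by 1.05 and 1.23 by 2 probes (adjusted p = 0.0184 and 0.0381, limma), while another, dimmer probe did not pass (-0.25, adjusted p = 0.813, limma). Slc6a17, a transporter of neutral amino acids known from neurons, was at 6.00 to 6.92 at 9:00 and at 4.94 to 5.60 at 15:00, where 1 of 3 samples was above background (fell by 1.24, adjusted p = 0.0234, limma). The remaining genes that fell, named here after their values were seen, were Gcnt1, a glycosyltransferase of core 2 O-glycans, Plod2, a lysyl hydroxylase of collagen, Lyrm2 and the linker histone gene H1f2. Their differences ranged from -0.82 to -0.58. For all 17 lower probes the 15:00 samples lay below the 9:00 samples (4.95% of all tested probes), but the same contrast had chosen these probes.

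Genes that respond to fatty acids through the nuclear receptor PPARA were among those that rose. Of 27 measured members of this list 3 rose, 0 fell and 24 did not pass, while 0.172% of all tested probes rose and 0.133% fell. The list's median difference was 0.14, against 0 over all tested probes. Angptl4, a secreted inhibitor of lipoprotein lipase, had the largest difference of the probes that passed. It was at 6.22, 5.86, 7.72 and 9.01 at 9:00 and at 10.46, 9.81 and 10.78 at 15:00, without overlap, and rose by 3.15 (SE 0.57, limma, adjusted p = 0.0162). Fat also expresses this gene, and its 15:00 level was lowest in replicate 2, where fat markers were lowest, and highest in replicate 3, where they were highest, although replicate 2 still lay above all 9:00 samples, and the part of fat in this difference was not tested. The difference was 2.94 without replicate 3 (limma, adjusted p = 0.061) and 2.61 without both replicates 1 and 3 (limma, adjusted p = 0.375, range over the alternatives 5.29e-05 to 0.375). Pex11a, which acts in the division of peroxisomes, was at 9.07 to 9.31 at 9:00 and at 9.86 to 10.17 at 15:00. It rose by 0.84 (SE 0.14, adjusted p = 0.0118, limma), a second probe rose by 0.91 (adjusted p = 0.0188, limma) and another did not pass (0.81, adjusted p = 0.08, limma). Slc25a20, the carnitine-acylcarnitine carrier of the mitochondrial inner membrane, was at 9.83 to 10.07 at 9:00 and at 10.38 to 10.97 at 15:00 (0.75, SE 0.15, limma, adjusted p = 0.0381) and did not pass without 15:00 replicate 3 (limma, adjusted p = 0.127, range 0.0102 to 0.193). Outside this list, the mitochondrial carrier genes Slc25a42 (coenzyme A) and Slc25a25 (ATP-Mg and phosphate) rose by 1.13 and 1.31 (limma, adjusted p = 0.0202 and 0.0496). Ppara itself, looked up after the list had been seen, was at 6.34 to 7.18 at 9:00 and at 7.61 to 8.62 at 15:00, without overlap, and did not pass (1.16, SE 0.35, limma, adjusted p = 0.196).

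The medians of glucocorticoid targets and immediate early genes were above that of all tested probes, and most members did not pass. Of all tested probes 0.172% rose and 0.133% fell by the looser rule. Of 18 measured glucocorticoid targets 2 rose (Per1 and Angptl4, described above), 0 fell and 14 had a higher mean at 15:00. The list's median was 0.45, 0.57 without 15:00 replicate 3 and 0.50 without both replicates 1 and 3. Of 12 measured immediate early genes 1 rose, 0 fell and 12 had a higher mean, against 6288 of 12776 tested probes. Their median was 0.57, and it was 0.64 and 0.25 with the same samples left out. Ier3, an early response gene of survival signalling, was at 9.56, 9.95, 10.56 and 10.66 at 9:00 and at 11.22, 11.57 and 11.60 at 15:00 (1.28, SE 0.28, limma, adjusted p = 0.0496). Egr1, a zinc finger factor, was at 7.26 to 8.64 and at 8.07 to 9.63, with overlap (1.01, SE 0.41, limma, adjusted p = 0.413). Without 15:00 replicate 3, 1 glucocorticoid target and 0 immediate early genes passed, and in the fit of the 7 samples alone 0 of either list.

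The other probes that rose belonged to separate functions. Tob2, a member of an antiproliferative family that recruits mRNA deadenylases, was at 6.80 to 7.08 at 9:00 and at 7.89 to 8.30 at 15:00 (1.23, SE 0.21, limma, adjusted p = 0.0118). Kcnk5, a potassium channel of the proximal tubule that takes part in bicarbonate handling, was at 9.999 to 10.27 at 9:00 and at 11.64, 11.19 and 10.81 at 15:00, and rose by 1.05 and 1.08 by 2 probes (limma, adjusted p = 0.0224 and 0.0327). Herpud1, a gene of endoplasmic reticulum stress, was the only 1 of 15 measured folding genes that passed (0.73, limma, adjusted p = 0.0447), and its list had a median of -0.01. Chosen after their values were seen, Xdh, the xanthine dehydrogenase that makes uric acid, rose by 1.02, Txnip, an inhibitor of thioredoxin, by 0.88, Tnfrsf21 by 0.74, the kinase gene Mknk2 by 0.69 and Ccdc85b by 0.69. For all 22 higher probes the groups did not overlap (4.67% of all tested probes), but the same contrast had chosen these probes too.

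Transporters and hormone-related genes of the tubule held the largest mean difference of all tested probes, that of Kap, and none of them passed. Of 19 measured organic ion transporters, 19 amino acid and peptide transporters, 30 sodium, chloride and water transport genes and 20 renin-angiotensin and hormone genes, 0 rose and 0 fell, with medians of -0.10, -0.42, -0.04 and -0.30. In turn, 14, 12, 16 and 17 had a lower mean at 15:00, against 6488 of 12776 tested probes. At an unadjusted p under 0.05 (limma), 6, 6, 3 and 9 were lower and 0, 3, 2 and 0 higher. Of all tested probes 685 were lower and 583 higher by this rule. Kap, the kidney androgen-regulated protein of the proximal tubule, was at 14.14, 13.45, 12.56 and 14.31 at 9:00 and at 6.83, 4.43 and 13.21 at 15:00. The 15:00 sample with the high value, replicate 3, was the one with adrenal and fat markers, and it lay within the 9:00 range (difference -5.46, SE 1.63, limma, adjusted p = 0.196). Low Kap values also occurred in single samples of other cortex groups. With 131I it was at 7.95 in 9:00 replicate 2, against 13.9 to 14.34 in the others. In 131I 15:00 replicate 2 it was at 7.69, against 11.03 to 12.07. In saline 12:00 replicate 3 it was at 7.46, against 11.54 and 12.64. Slc22a13, an organic anion transporter, was at 11.54, 10.83, 9.05 and 11.40 at 9:00 and at 6.57, 5.48 and 10.22 at 15:00. Slc22a19, a transporter of the same family, was at 10.44, 9.66, 7.74 and 10.33 against 4.92, 4.80 and 8.88. For both genes, as for Kap, replicate 3 was the lowest sample of 9:00 and the highest of 15:00. The water channel gene Aqp4 was at 8.37, 7.79, 5.45 and 8.06 at 9:00 and at 4.73, 4.63 and 5.78 at 15:00 (-2.37, SE 0.69, limma, adjusted p = 0.175). Slc15a2, a peptide transporter of the late proximal tubule, was at 9.19 to 10.19 at 9:00 and at 8.11 to 9.05 at 15:00, without overlap (-1.13, SE 0.31, limma, adjusted p = 0.143). Without 15:00 replicate 3 the differences of Kap and Slc22a13 were -7.99 and -4.69 and passed (limma, adjusted p = 0.020 for both, range over the alternatives 0.0196 to 0.519 and 0.0196 to 0.511), whereas those without 15:00 replicate 2 were -3.59 and -2.31. Of the 16 proximal tubule markers, which include Kap, 0 passed. The protease gene Napsa differed by -0.89, the cytochrome gene Cyp2e1 by 0.65, the water channel gene Aqp1 by -0.45 (without overlap) and the urate transporter gene Slc22a12 by -0.44, with adjusted p values of 0.617, 0.379, 0.524 and 0.415 (limma). Slc34a1, the phosphate transporter of this segment, was at 14.51 to 14.85 at 9:00 and at 14.63 to 14.75 at 15:00. The part of the adrenal and fat transcripts of 15:00 replicate 3 in these values was not tested.

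**Figure D3:**
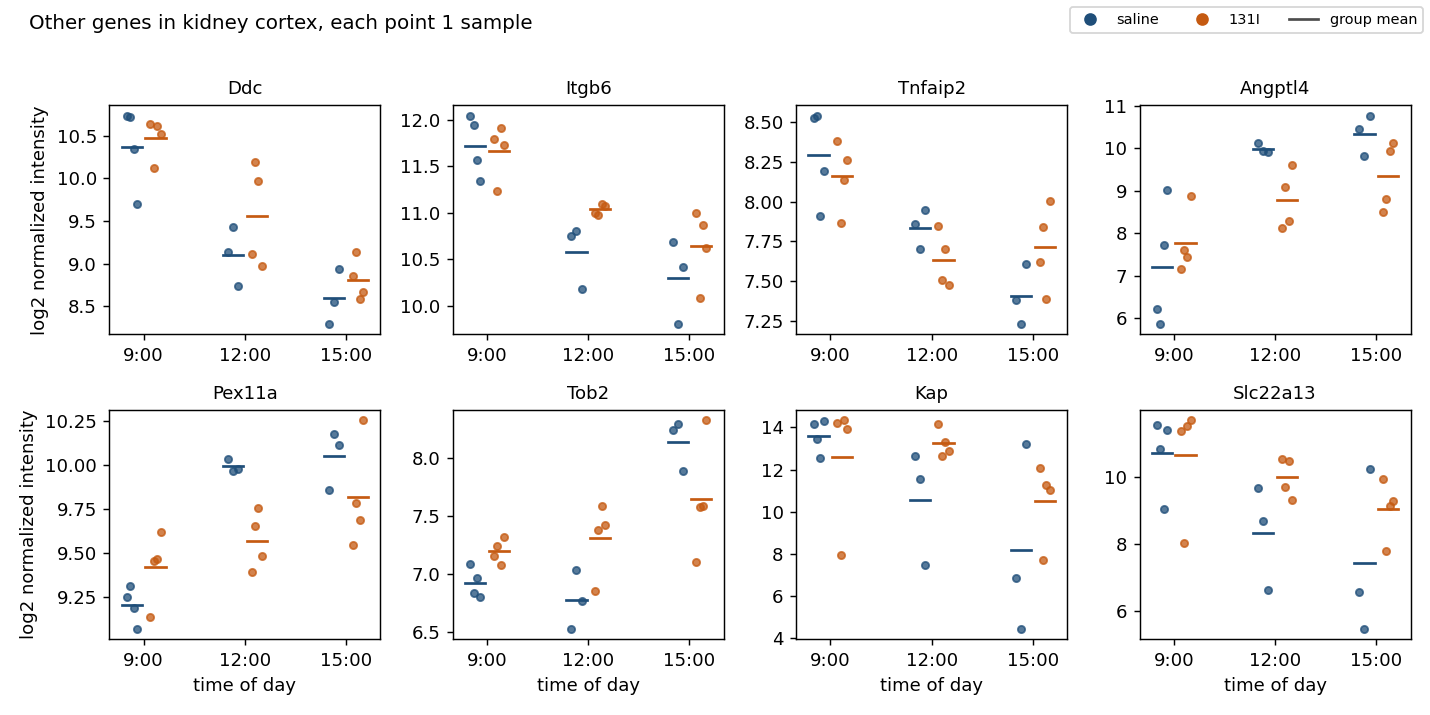
Log2 normalized intensity of 8 further genes against the time of day in saline (blue) and 131I (orange) cortex samples, each point 1 sample and each bar the group mean, for the brightest probe of each gene. Ddc, Itgb6 and Tnfaip2 fell and Angptl4, Pex11a and Tob2 rose without overlap in saline, whereas Kap and Slc22a13 had 1 sample of 15:00, at 13.21 and 10.22, within the 9:00 range.

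Most process lists held no transcript that passed. Of 24 lists, 17 had 0 members at an adjusted p under 0.05. Their members with the smallest p are described here where they differed most. Thrsp, a regulator of fatty acid synthesis that fat expresses strongly, was at 4.71 to 6.35 at 9:00 and at 8.94, 5.07 and 11.19 at 15:00, in the order of the summed fat markers at 15:00 (3.23, SE 1.26, limma, adjusted p = 0.38). Without both 15:00 replicates 1 and 3 its difference was -0.10. Tnfrsf12a, a receptor of the kidney injury list, was at 7.41 to 8.83 and at 11.29, 7.58 and 9.38 (1.37, limma, adjusted p = 0.557). The guanylate-binding protein gene Gbp2 (1.26) and H2-DMa of antigen presentation (1.01) had their highest 9:00 values, 10.23 and 9.88, in replicate 4. Cyp51, a demethylase of sterol synthesis, differed by -1.28 and Cyp3a13, of drug metabolism, by 1.16 (limma, adjusted p = 0.265 and 0.127). Sgk1, a kinase that regulates sodium transport, was at 10.41 to 11.72 at 9:00 and at 11.70 to 12.46 at 15:00 (0.99, limma, adjusted p = 0.252). The transferrin receptor gene Tfrc differed by -0.74 and the amino acid transporter gene Slc7a5 by 0.63, both without overlap (limma, adjusted p = 0.206 and 0.0987). Cirbp and Rbm3, whose transcripts rise with cooling, differed by -0.38 and 0.45 (limma, adjusted p = 0.548 and 0.406). Medians of the 27 oxidative phosphorylation, 16 ribosomal protein and 17 proliferation genes were -0.01, 0.03 and 0.01.

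**Figure D4:**
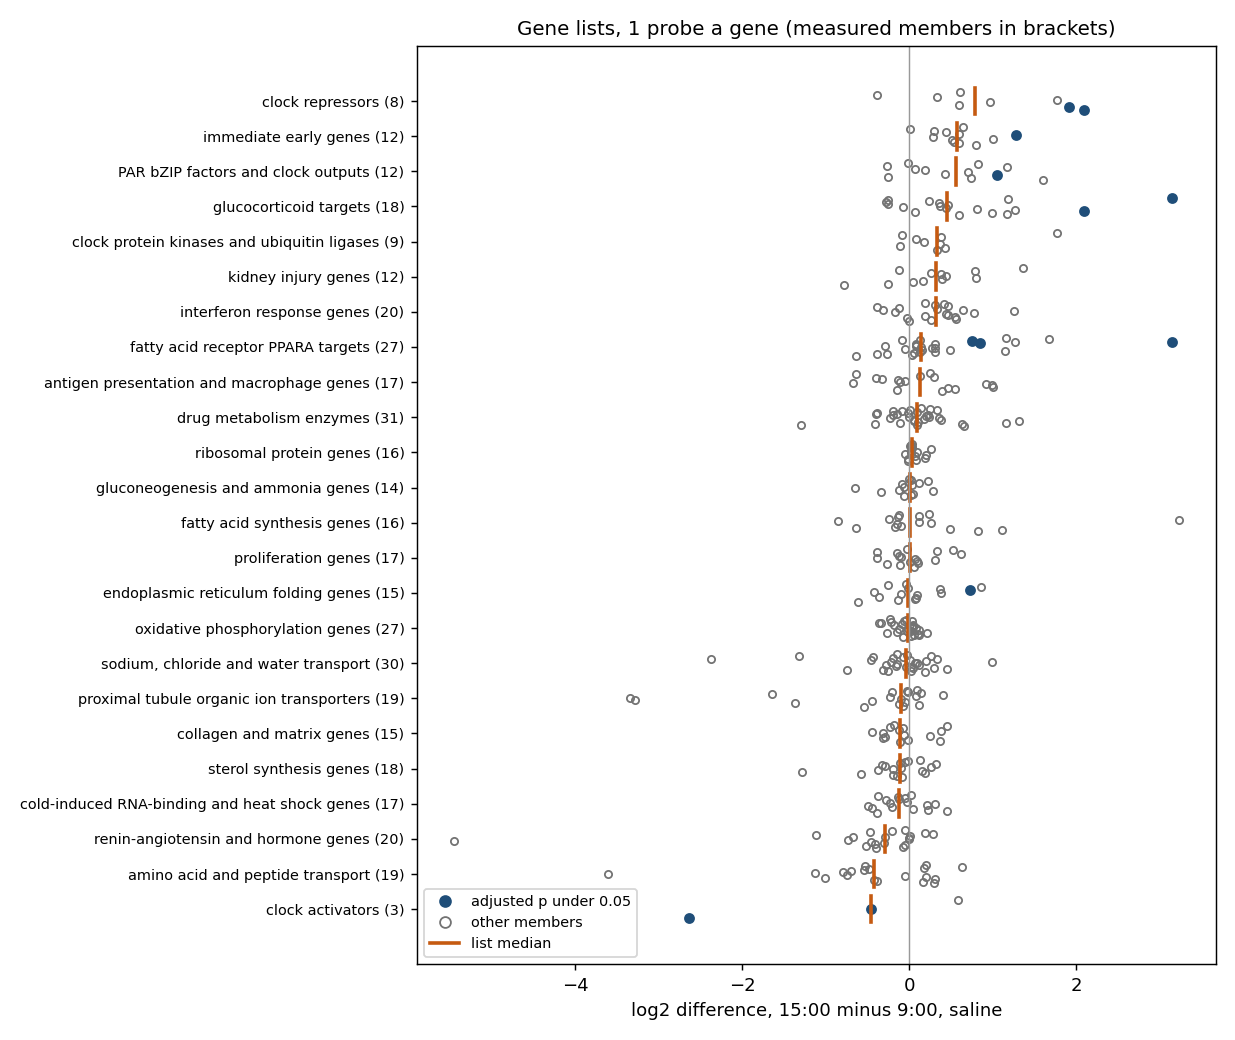
Log2 difference between 15:00 and 9:00 in saline cortex (x axis) for each measured member of 24 gene lists (1 probe a gene), with filled points at an adjusted p under 0.05 and bars at the list medians. The clock repressors had the highest median, 0.79, and the clock activators the lowest, -0.46.

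The 12:00 saline samples lay between the others for most of these transcripts. They share the 9:00 and 15:00 samples with the comparison above, so that values are only set side by side. The 12:00 mean was between the means of 9:00 and 15:00 for 33 of the 39 probes, nearer to 9:00 for 20 and nearer to 15:00 for 19. Arntl had means of 7.32 (9:00), 5.68 (12:00) and 4.68 (15:00), and Per1 of 6.90, 7.43 and 8.99. Dbp had means of 10.80, 12.30 and 12.39, and Tob2 of 6.92, 6.77 and 8.15, so that the former was near its 15:00 level at 12:00 and the latter near its 9:00 level.

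The same contrast in the 131I-injected mice, which share no sample with the saline mice, had the same sign for most of the 39 probes. Over all tested probes, more passed with 131I than in saline. The 8 samples, 4 at each time, had received 90 kBq. In them 9 probes were called (0.0704%) and 99 passed the looser rule (0.775%). Of the 39 saline probes, 37 had the same sign with 131I, or 94.9%, against 62.2% of all tested probes, and 15 passed the looser rule there with the same sign. This was 15 of 39 probes of saline and 15 of 99 probes of 131I. The difference was larger in size in saline for 36 of the 39 probes, which had been chosen on the saline values. Of the 6 called probes 3 were called in both, those of Arntl, Ddc and Per2 (ILMN_2987863, which differed by 2.03 with 131I). The other Per2 probe, ILMN_2987862, was called with 131I only. Arntl differed by -2.57 (SE 0.27), Ddc by -1.66 (SE 0.25), Per2 (ILMN_2987862) by 2.33 (SE 0.33), Usp2 by 1.05 (SE 0.19) and Dbp by 1.78 (SE 0.33) with 131I, with adjusted p values of 4.44e-05, 0.003, 0.00286, 0.0132 and 0.0159 (limma). Arntl was above background in none of the 131I samples of 15:00 either, so that the sizes of its saline and 131I differences cannot be compared. Per1, Angptl4, Tob2, Kcnk5 and Tnfaip2 (ILMN_2474858) differed by 0.85, 1.57, 0.45, 0.49 and -0.29 with 131I and did not pass. Slc25a20 and Slc25a25 were the 2 probes with the opposite sign, at -0.07 and -0.01. The test of the difference between the contrasts of saline and 131I passed for 0 probes (0%) at an adjusted p under 0.05 (limma, smallest adjusted p 0.992, with 612 probes, or 4.79%, at an unadjusted p under 0.05). It passed for 9 probes without both saline 15:00 replicates 1 and 3. For Per1 (ILMN_2813484) the saline contrast exceeded the 131I contrast by 1.23 on the log2 scale (SE 0.50, limma, adjusted p = 0.992). Over all tested probes the differences of both contrasts had a Pearson r of 0.46 (n = 12776 probes, which are not independent). The list medians in saline and 131I were 0.79 and 0.83 for the clock repressors and 0.56 and 0.14 for the PAR bZIP factors and outputs. For the glucocorticoid targets they were 0.45 and -0.01, and for the immediate early genes 0.57 and 0.08. For the PPARA targets they were 0.14 and -0.07, and with 131I 0 of these targets rose and 1 fell by the looser rule. The counts in the 131I mice also rested on single samples, with 1 to 65 called probes when 1 of the 8 was left out, the highest without 9:00 replicate 2, and 51 without 15:00 replicate 2. In a fit of these 8 samples alone 5 were called. The 131I 9:00 group also held a sample with adrenal markers, replicate 4, in which they summed to 1311.

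**Figure D5:**
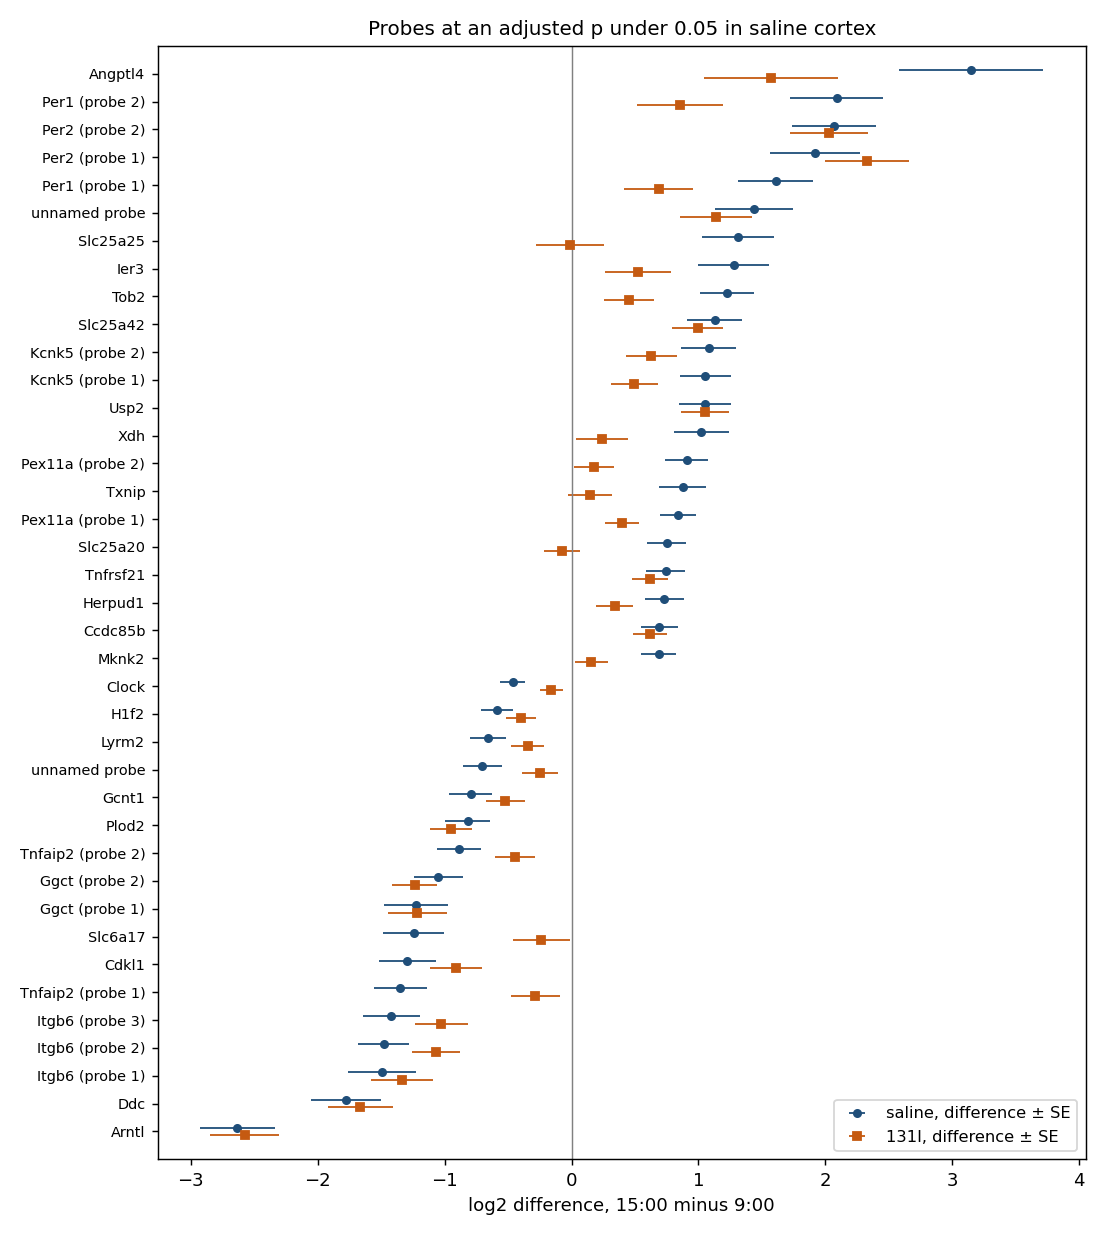
Log2 difference between 15:00 and 9:00 (x axis, ± SE) in saline (blue circles) and 131I (orange squares) cortex for the 39 probes at an adjusted p under 0.05 in saline, 1 line a probe. The probes were chosen on the saline values. Of them 37 had the same sign with 131I, and Slc25a20 (-0.07) and Slc25a25 (-0.01) did not.

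Other tissues of the series were compared in the same way for these genes. They come from mice of the same saline groups, so that they are no independent replicates, and a difference between tissues was not tested. Arntl had differences of -2.82 in the kidney medulla, -4.21 in the liver, -2.30 in the lungs and -2.59 in the thyroid, each at an adjusted p under 0.05, and of -0.28 in the spleen (adjusted p = 0.633, limma). Dbp, which missed the threshold in the cortex, rose by 2.27 in the medulla, 5.55 in the liver, 2.41 in the lungs, 1.98 in the spleen and 2.88 in the thyroid. Ddc fell by 1.18 in the medulla and by 1.41 in the liver, and Tnfaip2 (ILMN_2474858) fell by 1.06 and 1.79 there. Angptl4 rose by 2.48 in the medulla, by 2.37 in the liver and by 1.61 in the thyroid, and was at 0.22 in the lungs and 0.28 in the spleen without passing. The 3 Itgb6 probes differed by -0.98, -0.90 and -0.94 in the medulla, where only the brightest, ILMN_2805372, passed (adjusted p = 0.044, limma), and none passed in the lungs. The 2 brighter Itgb6 probes fell by 2.66 and 2.15 in the thyroid. Among control groups, the paper found the most transcripts differing between these times of day in the thyroid. Markers of stray tissue are given here for the cortex samples only. The part of tissue composition in the differences of the thyroid and the other tissues was not tested.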

How the data were processed

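RNA of kidney cortex was measured on Illumina MouseRef-8 arrays. The authors acquired the images, quantified the raw signals and quantile-normalized them. The deposited raw signal intensity and detection p-value of each probe were used here, and the authors' deposited normalized intensity served as an alternative. Background was corrected by normexp fitted from the detection p-values (offset 16), followed by quantile normalization over the cortex arrays and log2 transformation. Probes that 3 or more cortex arrays detected (detection p under 0.01) were tested with limma 3.58.1 in R 4.3.3, in a fit of all 6 cortex groups with an intensity trend and Benjamini-Hochberg adjustment over all tested probes. The call rule was an adjusted p under 0.01 with a fold-change of at least 1.5, and an adjusted p under 0.05 was the looser rule. The fit was tested on simulated data with known changes. Of the probes, 23978 had 1 gene symbol in the platform annotation and 1719 had none.

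A gene with several probes was represented in lists by the probe with the highest mean. Named were the probes called and those with the smallest p up to 20, all measured clock genes, and of each other list the members that passed or otherwise the 2 with the smallest p. Names outside this rule are stated as such. The members and lists were chosen with earlier results of these data known. Promoter windows came from RefSeq (GRCm38.p6) and were searched on both strands. Alternatives varied the background correction, normalization, filter, samples in the fit, eBayes settings, replicate block and the samples left out. Array data hold no read depth, and the number of arrays limits the precision.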

Additional observations from a re-analysis of the deposited data

Results flagged for a closer look

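Single samples that stood apart from the other 3 of their group were looked for in groups of 4, where chance alone would mark about 0.05 of the groups. Of 78 named probes in the saline 9:00 group, 2 were marked. Cdkl1 was at 7.21 in replicate 1 and at 7.63 to 7.71 in the others, and Thrsp was at 6.35 in replicate 4 and at 4.71 to 4.87 in the others.

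Of 33 pairs of a marker list and a group, 6 were marked by the summed intensity. In the saline 9:00 group muscle markers summed to 451 in replicate 3 and to 480 to 483 in the others. In the 131I 9:00 group, proximal tubule markers summed to 97985 in replicate 2 against 137398 to 141559, and glomerulus markers to 5291 against 1998 to 2460 in the same sample. Replicate 4 of that group had adrenal cortex markers at 1311 against 175 to 183 and lymphocyte markers at 1093 against 554 to 582. In the 131I 15:00 group papilla and urothelium markers summed to 1341 in replicate 4 and to 1110 to 1144 in the others. The part of these samples in the 131I contrast was measured only by leaving out each sample in turn.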

How the results depend on the processing

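The 6 called probes became 13 with median scaling (0 higher, 13 lower), 0 in the fit of the compared groups only, 3 with no intensity trend and 15 without both saline 15:00 replicates 1 and 3, an alternative chosen after the marker levels had been seen. They ranged from 1 to 15 when each replicate was left out in turn. The 39 probes of the looser rule became 103 with median scaling, of which 24 were among the 39, 22 with no filter on dim probes, 0 in the fit of the compared groups only and 24 with no intensity trend, and ranged from 9 to 43 with a replicate left out. The 9 called probes of 131I became 5 in the fit of the compared groups only and ranged from 1 to 65. The difference between saline and 131I passed for 0 probes in all alternatives but 1, and for 9 without both saline 15:00 replicates 1 and 3.

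When the fit held the replicate number as a block, 17 probes were called and 52 passed the looser rule. Same-numbered samples of 9:00 and 15:00 were different mice, since each group was killed at its own time. Their deviations from the group means correlated at -0.10, 0.15 and -0.21, and those of differently numbered samples at -0.26 to 0.15. Whether a batch follows the numbers was not tested.

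Over the named probes and their alternatives, 1145 values kept their direction and side of the threshold, 144 no longer passed, 15 newly passed and 16 changed sign, none of which passed the test. Under median scaling, which moved the median of all tested probes to -0.20 but single probes by other amounts, Nampt was at -0.059, Klf9 at -0.17, Ndufb3 at -0.026 and Rpl27 at -0.011. Without both saline 15:00 replicates 1 and 3, Wee1 was at -0.023, Ppp1r3c at -0.026, Thrsp at -0.096, Krt20 at -0.0084 and Tnfrsf12a at -0.47. With 1 replicate left out in turn, Nfil3 ranged from -0.60 to 0.055 (the latter without 9:00 replicate 1), Wee1 from -0.0032 (without 15:00 replicate 1) to 0.65, Klf9 from -0.0025 (without 9:00 replicate 4) to 0.12 and Cdkn1a from -0.23 (without 15:00 replicate 1) to 0.13 (without 15:00 replicate 3). Cdkn1a was at 0.16 with the replicate block, 0.11 without 9:00 replicate 4 and 0.061 without 15:00 replicate 2. The cause of these changes was not tested.

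With 4 and 3 arrays, differences within the spread between samples were not detectable, and values below background, as for Arntl at 15:00, give bounds only. Cage and time of day cannot be told apart.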
